A study of Mus musculus with 134 samples.

Results

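The 8 genes Gata4, Gata6, Sox17, Sox7, Pdgfra, Foxa2, Dab2 and Lama1 are widely used to recognise primitive endoderm. They were chosen by name and not by a threshold on their values, and they are 8 of the 25209 genes counted in every bulk library. All 8 had a row in the H3K27me3 single-cell table, which lists 17622 genes, and 7 of them, all but Sox7, had a row in the H3K4me3 single-cell table, which lists 17142 genes.

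Primitive endoderm is the layer of the blastocyst that lies between the epiblast and the blastocoel and later forms the parietal and visceral endoderm of the yolk sac. Fibroblast growth factor signalling favours it over the epiblast, and the GATA factor Gata6 stands early in its specification, in mutual repression with the epiblast factor Nanog. Gata4, Sox17 and Sox7 act after Gata6, Pdgfra is a receptor tyrosine kinase of the emerging layer, Foxa2 is a forkhead factor shared with definitive endoderm, Dab2 is an endocytic adaptor needed for visceral endoderm, and Lama1 encodes the laminin alpha 1 chain of the basement membrane that the layer lays down. Embryonic stem cells stand for the epiblast, and a few cells with primitive endoderm gene expression are known to arise in serum cultures.

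The series tested SET-seq, an assay that reads a histone mark and the cytoplasmic RNA of the same cells, in mouse embryonic stem cells of the line ES-E14TG2a (labelled E14, strain 129/Ola) grown with serum and LIF. Expression was measured in 54 bulk libraries of 27 conditions with 2 libraries each, and in 752 single cells. The bulk conditions were total RNA tagmented in vitro with varied temperature, time, Tn5 amount or RNA input (14 conditions), conventional ligation-based RNA-seq of poly-A RNA (1 condition), SET-seq RNA without an antibody from 10 to 10000 cells (4 conditions), SET-seq RNA taken along with H3K27me3 or H3K4me3 from 100, 1000 and 10000 cells (6 conditions), and SET-seq RNA taken along with H3K27me3 in 2 Aebp2 knockout clones, KO1 and KO2. The single cells had divided beside a bead carrying Wnt3a about 12 h after the beads were added, and the position of each daughter, nearer to the bead (proximal) or farther from it (distal), was noted. Every bulk group was untreated, and all groups carry the label of the same parental line. The knockout clones were each grown from CRISPR/Cas9-edited cells, so a clone is a single edited line, and their 4 libraries are 2 independent experiments on each of 2 clones. The fits of knockout against WT take these 4 libraries as independent, so their p-values do not measure the spread between knockout clones. The temperature and time series are described in the methods as biologically independent pairs. For the remaining bulk groups separate cultures were not stated, so p-values there measure the spread between libraries, which may be technical. The libraries called WT below are the pair of H3K27me3 SET-seq libraries from 10000 unedited cells; the cell number behind the knockout libraries was not given in the sources used here.

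Library depth set what could be seen of rare transcripts. After the ribosomal precursor Rn45s was removed the libraries held 188275 to 16888686 counts, so that 3 counts, the floor used here, were worth between 0.178 and 15.9 CPM, the counts of a gene scaled to the total of its library without Rn45s. Rn45s itself took 48.8 to 56.7% of the counts of the knockout libraries and 21.9 and 23.4% of those of WT. Pluripotency genes were abundant throughout, with a summed level of 2704 to 7456 CPM for 10 genes. Hprt split the libraries: it was under 3 CPM in 32 libraries, all in vitro and knockout libraries, and above 60 CPM in 22, all SET-seq libraries of unedited cells and the ligation-based libraries. E14TG2a is known as an Hprt-deficient line, so the 22 libraries go against that description. The knockout and WT libraries lie on opposite sides of this split, with 0 to 2.14 against 291 and 310 CPM. An effect of the knockout and any other difference that goes with this split cannot be told apart in the bulk data.

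The guides that made the clones are shown because the knockout is the genetic contrast in which the 8 genes were compared. Both match the mm9 build once on chromosome 6, on the plus strand within Aebp2, and the capitals mark the protospacer-adjacent motif of the genome that follows each guide. Which clone came from which guide was not given in the sources used here.
Aebp2 sg#1: attcgctccatacatgtcgaTGG
Aebp2 sg#2: aacaggtgttcgtttgcttgTGG
The first guide covers chr6:140582382-140582401 and lies wholly inside an annotated exon, chr6:140582210-140582417. The second covers chr6:140586176-140586195, and 15 of its 20 bases lie in the exon chr6:140586181-140586288, the others in the intron before it. Aebp2, a DNA-binding accessory subunit of the Polycomb repressive complex that writes H3K27me3, was at 15.7 and 15.0 CPM in KO1, 49.7 and 30.3 CPM in KO2, and 65.5 and 76.0 CPM in WT. All 4 knockout libraries lay below both WT libraries, and KO1 lay below KO2. The fitted difference between knockout and WT was -1.20 on the log2 scale (SE 0.36, adjusted p = 0.0149, edgeR's quasi-likelihood test). Without WT replicate 2 it was -1.08 with an adjusted p of 0.131. Both clones lay within the 0 to 52.2 CPM of the unedited SET-seq libraries without antibody, a range whose ends were both libraries of 10 cells. The 12 unedited libraries with an antibody ranged from 34.7 to 76.0 CPM. Both KO1 libraries and the KO2 library at 30.2 CPM lay below them, and the KO2 library at 49.7 CPM lay among them. The study also examined the clones by Western blot and Sanger sequencing.

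Of the 8 genes only Lama1 was plainly expressed in bulk, and the other 7 stayed at few counts in nearly every library. Compared per length of exon, the median over the 54 libraries was 22.6 RPKM (CPM per kilobase of exon) for Lama1, which is higher than that of 87.3% of genes. The next were Gata4 with 0.802 RPKM and Sox17 with 0.352 RPKM. Gata6, Dab2 and Pdgfra followed with 0.184, 0.172 and 0.114 RPKM, and the medians of Sox7 and Foxa2 were 0. A median of 0 was shared by 42.4% of genes. In bulk RNA, fewer expressing cells and less RNA per cell cannot be told apart.

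Among the transcription factors Gata4 was seen most often, with at least 1 count in 49 of 54 libraries and 1002 counts in all. Its highest levels, 11.3 and 37.1 CPM, came from the libraries made from 30 pg of RNA, where they rested on 31 and 12 counts. The next highest, 10.2 CPM, was 2 counts. Gata6, the gene at the head of the network, had 239 counts over 40 libraries and reached 4.57 CPM. Its median was 1.03 CPM in the 28 in vitro libraries and 0 in the 8 SET-seq libraries without antibody.

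The SoxF genes Sox17 and Sox7 differed in how often they were met. Sox17 had 377 counts in 43 libraries, and its highest level, 15.9 CPM, was 3 counts in the shallowest library, the second library of 10 cells. Sox7 had 61 counts in 22 libraries, with at most 2.14 CPM. Foxa2 had 65 counts in 26 libraries, and its top value of 5.31 CPM was again a library of 10 cells. The highest values of these genes thus came from 1 to 3 counts.

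Pdgfra and Dab2, the receptor and the adaptor, were low everywhere. Pdgfra had a count in 42 libraries and reached 5.30 CPM, with 1.78 to 3.98 CPM in the 4 knockout libraries against 0 to 1.62 CPM in the 12 SET-seq libraries with an antibody. The knockout values rest on 12 counts in all. Dab2 had a count in 40 libraries and reached 2.98 CPM.

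**Figure D1:**
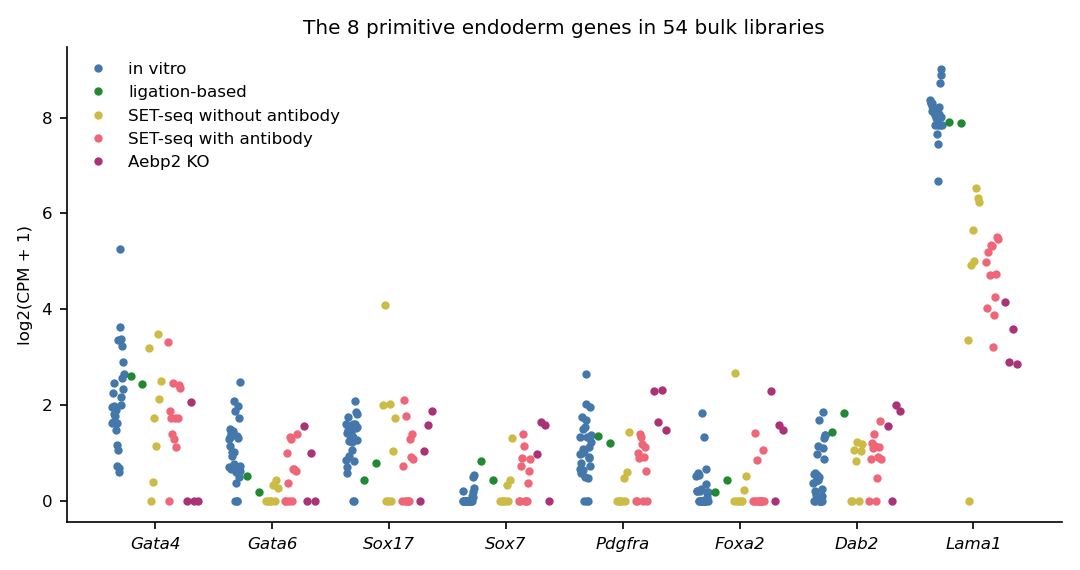
Level of the 8 primitive endoderm genes in each of 54 bulk libraries, as log2(CPM + 1) on the vertical axis; points are libraries and colours the 5 kinds of library. Lama1 stands above the other 7 genes in most libraries, while 1 Gata4 value of 37.1 CPM and 1 Sox17 value of 15.9 CPM are the highest among the rest.

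Lama1 (chr17:68046605-68171985, plus strand, exons of 9518 bases in all) followed the kind of library. It was highest in RNA tagmented in vitro, at 102 to 519 CPM with a median of 278 CPM over 28 libraries. The ligation-based libraries lay within that range, at 236 and 238 CPM. SET-seq libraries without antibody gave 0 to 92.1 CPM (median 40.3, n = 8) and those with an antibody 8.28 to 44.3 CPM (median 28.2, n = 12). No SET-seq library reached the lowest in vitro library.

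Within kinds of library the spread was also wide. The 3 Tn5 conditions headed the order, with 418 to 519 CPM in the first replicate and 228 to 259 CPM in the second, so that their replicates differed more than the 3 amounts of Tn5 did. At the lower end stood KO1 (11.5 ± 7.26 CPM, SD, n = 2), H3K4me3 SET-seq of 100 cells (8.28 and 13.7 CPM), KO2 (8.58 ± 3.33 CPM, n = 2) and SET-seq of 10 cells (0 and 9.20 CPM). Of the 26 pairs of neighbours in the order of the 27 conditions, 19 overlapped in their libraries.

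**Figure D2:**
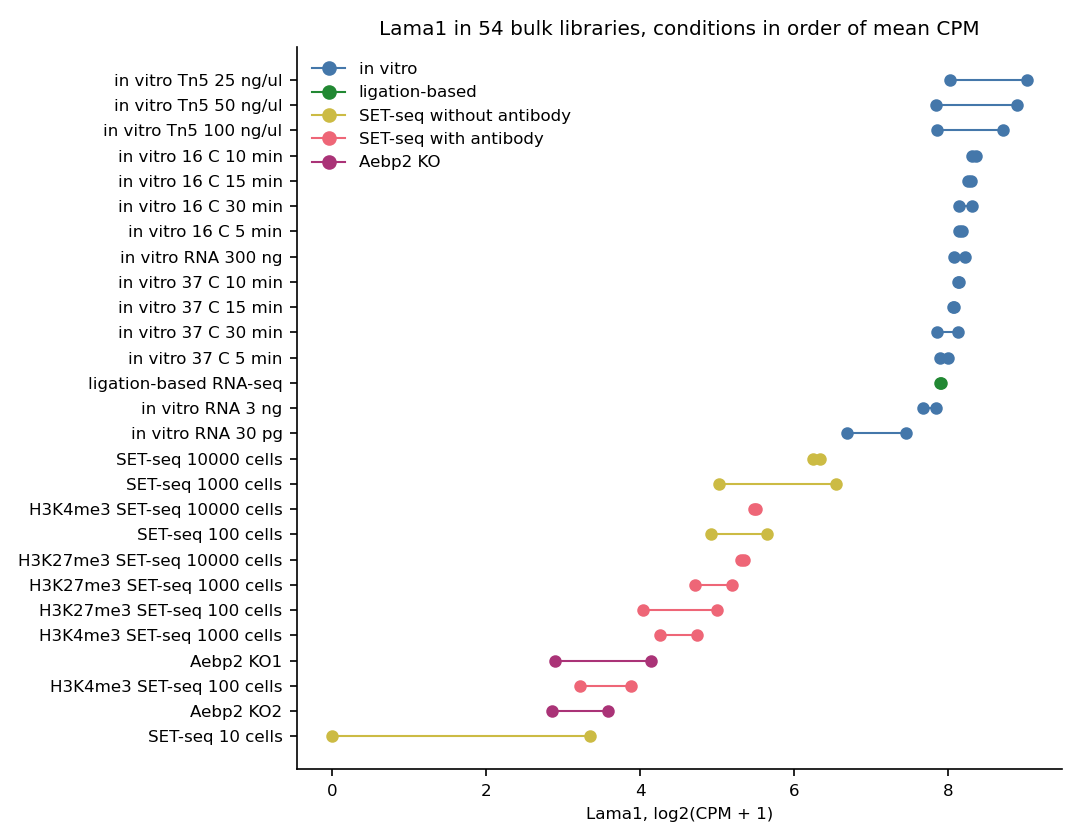
Lama1 in each bulk library, as log2(CPM + 1) on the horizontal axis, with the 27 conditions on the vertical axis in order of mean CPM; each condition's 2 libraries are joined by a line and colours show the kind of library. In vitro and ligation-based conditions fill the 15 highest places, and the knockout clones lie among the lowest 4.

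The knockout libraries were compared with WT to see which of the genes changed with the loss of Aebp2. Lama1 was at 16.7 and 6.42 CPM in KO1, 10.9 and 6.23 CPM in KO2, and 39.6 and 38.7 CPM in WT. The groups did not overlap, though how many of all genes did likewise was not counted, here or below. Lama1 fell by 1.81 on the log2 scale (SE 0.35, adjusted p = 0.000927, edgeR). It was the single member that passed the filter on low counts, and the single member called. In this comparison 44.4% of the 9523 genes tested were called, and 22.5% were called lower, so a call was common. The difference lay between -2.39 and -1.53 in 17 other settings and stayed past the threshold in each of them, including either clone alone, each library left out and WT libraries of 100 to 10000 cells. Libraries of 100 unedited cells with H3K4me3, at 8.28 and 13.7 CPM, were nevertheless as low as the knockout libraries. The in vitro libraries, which share the low Hprt of the knockouts, held 102 CPM or more, but they were made from total and not cytoplasmic RNA. The part of the Hprt split, the Rn45s share and cell number in the Lama1 difference was not tested.

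The other 7 members had too few counts for the fit, and none was called when the filter was dropped, which left 20.4% of genes called. Gata4 had 3 counts in the 4 knockout libraries, all in KO1 replicate 2, and 17 in WT, a ratio of 0.197 (95% exact interval 0.0371 to 0.682). Foxa2 had 8 counts against 1, a ratio of 8.95 (1.20 to 397). These intervals and all others given here cover counting error alone, not the spread between libraries, and the library ranges of both genes overlapped between the groups. Gata6 had 3 counts against 5, Sox17 6 against 3, Sox7 5 against 6, Pdgfra 12 against 7 and Dab2 8 against 6. For each of these 5 genes the interval of the ratio included 1, and reached from 0.104 to 3.45 for Gata6 and from 0.696 to 5.75 for Pdgfra. Changes within these intervals were not detectable at this depth.

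**Figure D3:**
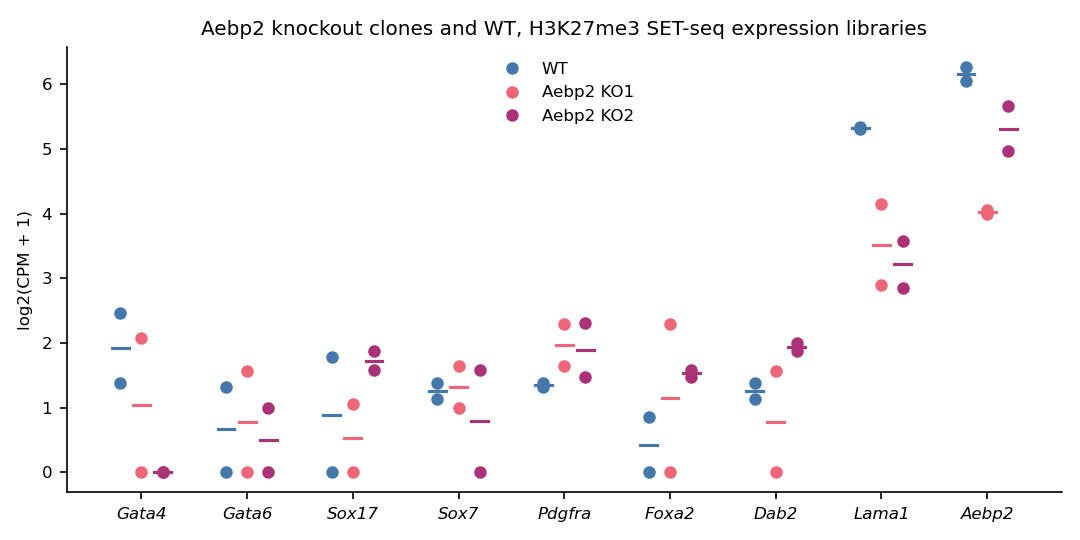
The 8 primitive endoderm genes and Aebp2 in the 2 WT, 2 KO1 and 2 KO2 libraries, as log2(CPM + 1) on the vertical axis; points are libraries and bars the means of log2(CPM + 1). For Lama1 and Aebp2 all knockout libraries lie below WT, while Gata4, Gata6, Sox17, Sox7, Foxa2 and Dab2 overlap with it and Pdgfra, at 1.78 to 3.98 against at most 1.62 CPM, lies above it on few counts.

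Genes that work beside the members are set here beside all genes tested, of which 22% were called higher and 22.5% lower in the knockouts. Of 12 basement membrane and parietal endoderm genes 9 were tested, 2 rose and 1 fell in the knockouts, with a median of 0.49 on the log2 scale against 0.00 over all genes tested. Lamb1, which encodes the laminin chain that assembles with Lama1, rose by 1.23 (SE 0.32, adjusted p = 0.00700, edgeR), and Nid2, the linker nidogen 2, rose by 1.14 (SE 0.17). Sparc, a collagen-binding matrix protein, fell by 0.42 (SE 0.16). Lama1 and Lamb1, partners in the same trimer, thus differed in direction.

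Against the same background of 44.4% called in either direction, 3 of 16 visceral endoderm genes were tested and 2 rose, the endocytic receptor Lrp2 by 1.24 (SE 0.38) and the apolipoprotein Apoe by 0.51 (SE 0.18). Among 14 signalling genes and regulators 8 were tested, 1 rose and 3 fell. The rise was in Sall4, a zinc finger factor used in both epiblast and primitive endoderm, by 1.35 (SE 0.19). Pdgfc, a ligand of Pdgfra, fell by 1.20 (SE 0.41), and Nanog, the epiblast factor that opposes Gata6, fell by 0.62 (SE 0.22). The study, whose rule asked for an absolute log2 difference over 1 and p under 0.05, reported Nanog as unchanged. The fall of Nanog here was smaller than that size. Gata6, with 3 counts against 5, gave no measure of whether it changed along with Nanog.

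Lists of neighbouring fates also held few tested genes, to be read against the 44.4% of all genes called. Of 8 mesendoderm and definitive endoderm genes 3 were tested, with Eomes, a T-box factor, higher by 1.67 (SE 0.31), and Gsc, a homeobox factor, and Kit, a receptor, lower at -2.25 (SE 0.68) and -1.43 (SE 0.22). All 10 pluripotency genes were tested, 2 rose and 4 fell, led by Klf4 at -2.56 (SE 0.17) and Lin28a at 1.83 (SE 0.21). Of 8 trophectoderm genes 3 were tested, with the keratin Krt8 at 1.25 (SE 0.33) and the factor Tfap2c at -0.95 (SE 0.29). Of 8 fibroblast genes 2 were tested and 0 called, and of 10 genes of unrelated tissues, whose summed level was 3.21 to 14.9 CPM in the knockouts and 2.90 to 18.0 CPM in SET-seq libraries with an antibody, 0 passed the filter.

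Between the clones no member passed the test. Lama1 was at 0.36 in KO1 against KO2 on the log2 scale (SE 0.52, adjusted p = 0.705, edgeR), and the libraries of the clones overlapped; 11.8% of genes were called in this comparison, 5.88% higher and 5.89% lower in KO1, and 4.3% without the filter. Sign and size rested on single libraries, since the difference was -0.49 without KO1 replicate 1. The remaining 7 members held 0 to 6 counts per clone. Sox17 had 1 count in KO1 and 5 in KO2, and Dab2 had 2 and 6. The intervals of their ratios, 0.00461 to 1.95 and 0.0359 to 2.03, included 1. Of the surrounding genes Nid1, a nidogen, was 0.76 higher in KO1 (SE 0.21), as were Sox2 (1.19, SE 0.17), Nanog (0.65, SE 0.14) and Sall4 (0.38, SE 0.11). Krt8 was -0.91 (SE 0.27) and Vim, the intermediate filament vimentin, -1.11 (SE 0.14), both lower in KO1. Nanog and Sox2 thus differed between the clones, while no difference in the members was detectable at this depth.

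Lama1 also differed between assay formats in unedited cells. It was at 79.4 and 74.8 CPM in SET-seq RNA of 10000 cells without antibody and at 254 and 237 CPM in RNA tagmented in vitro at 37 °C for 5 min, a fitted log2 difference of -1.59 (SE 0.19, adjusted p = 0.000117, edgeR). Here 2 members passed the filter, 1 was called, and 49.8% of all genes were called, 24.9% lower and 24.9% higher. Gata4 was at 3.34 and 4.65 CPM in SET-seq and at 1.10 and 9.28 CPM in vitro (-0.23, SE 0.79), so the in vitro libraries bracketed the SET-seq values. These libraries also lie on opposite sides of the Hprt split, with 66.2 and 125 CPM against 0 and 0, whose part in the Lama1 difference was not tested.

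Libraries taken along with an antibody lay a further step lower. By the methods the antibody was put on the nuclei, from which the RNA had already been taken off. Lama1 ranged from 8.28 to 44.3 CPM in 12 libraries with an antibody and from 29.3 to 92.1 CPM in 6 without, at 100, 1000 and 10000 cells. The ranges overlapped, and the fitted log2 difference of Lama1 with against without an antibody was -1.08 (SE 0.21, adjusted p = 0.000163, edgeR), while 41.2% of all genes were called, 20.7% as lower, and Gata4, the other member tested, was not (0.21, SE 0.72). Hprt was 0.83 higher with an antibody (SE 0.14), so these libraries differed in the gene that marks the Hprt split as well. The part of Hprt in the Lama1 difference was not tested. Between H3K27me3 and H3K4me3 libraries Lama1 differed by 0.45 (SE 0.23) and Gata4 by 0.47 (SE 0.81). Neither was called by edgeR, nor was any of the 11616 genes tested (percent called 0), although 361 had an unadjusted p under 0.05. DESeq2 also called 0.

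Tagmentation temperature shifted Lama1 by little. It was at 230 to 280 CPM in 8 libraries made at 37 °C and at 281 to 328 CPM in 8 made at 16 °C. The groups only just failed to overlap, which was not counted over all genes. The fitted difference was -0.16 (SE 0.05, adjusted p = 0.0135, edgeR), 1 of 3 members that passed the filter, in a comparison in which 63.4% of all genes were called, 31.4% as lower. Gata4 (-0.29, SE 0.33) and Pdgfra (0.55, SE 0.49) were not called. The ligation-based libraries, which were primed at random from poly-A RNA, were at 238 and 236 CPM for Lama1 against 254 and 237 CPM in vitro, groups that overlapped. The fit gave -0.29 (SE 0.10, adjusted p = 0.0191, edgeR) for this pair, 1 call among 4 members tested with 58.1% of all genes called, 27.9% as lower, and a median over all genes of 0.13. The call was lost in 3 of 4 fits with a library left out, with an adjusted p of up to 0.260, and without the filter. The remaining 3, Gata4, Pdgfra and Dab2, were at -0.26 (SE 0.63), -1.56 (SE 0.74, adjusted p = 0.0794) and 0.60 (SE 1.07). Ligation-based and in vitro libraries lie on opposite sides of the Hprt split, with 181 and 184 CPM against 0 and 0. They were also sequenced on different platforms. The part of either in these differences was not tested.

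The pattern of each member over the 27 condition means of log2(CPM + 1) was set beside that of 12737 other genes with a mean of at least 1 CPM. Lama1 was most like Rnf10, with Pearson's r of 0.955, and Rnf10 itself ranged from 116 to 1212 CPM. The closest genes to the rest had r between 0.759 (Gata4 and Exog) and 0.868 (Sox7 and Ttbk1). These points share library kind and depth, and for the rest they are made of few counts. Gata6 lay closest to Gadd45g (0.867), Sox17 to Chrnb1 (0.868), Pdgfra to Slc35g2 (0.820), Foxa2 to Ccdc6 (0.796) and Dab2 to Antxr1 (0.827). None of the 8 closest genes was on any of the lists used here.

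In single cells the members were sought as reads, since the files hold no molecular identifiers and reads of a cell are not independent molecules. Of 752 cells in 16 experiments, 545 had more than 1000 and fewer than 5000 genes and were kept, 335 from 10 experiments with H3K27me3 and 210 from 6 with H3K4me3. A median cell held 198020 and 93763 reads in these tables after Rn45s. The plates drew on 96 barcodes, of which 80 were used in more than 1 experiment.

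No kept cell had reads of more than 4 of the 8 genes. Of 335 H3K27me3 cells, 127 had no read of any member, 114 had reads of 1 member, 75 of 2, 16 of 3 and 3 of 4. For H3K4me3 these numbers were 117, 75, 15 and 3 cells with reads of 0, 1, 2 and 3 members. The transcription factors were rare, with Gata4 in 3 and 1 cells, Gata6 in 1 and 11, Sox17 in 1 and 5, and Foxa2 in 10 and 2 of the H3K27me3 and H3K4me3 cells, and Sox7 in 1 H3K27me3 cell. Of the genes that stem cells should lack, looked up at the same depths, Ins2, Krt10, Myl2, Prm1 and Umod had no row in either table. Alb was found in 17 and 6 cells, Myh6 in 8 and 10, and Cd3e in 1 and 1, while Cyp3a11 was found in 4 H3K27me3 cells. Shares of such genes thus reached 5.07% with H3K27me3 and 4.76% with H3K4me3, both set by the highest gene of the list. The shares of the transcription factors over all kept cells lay within these ranges, except Gata6 with H3K4me3 at 5.24%. By these pooled shares alone they did not stand apart from the unrelated genes. Foxa2 in H3K27me3 experiment 1 did, since all 16 cells, kept or not, had 36 to 104 reads. The source of either kind of read was not tested. The 9 pluripotency genes with a row were found in 33 (Pou5f1) to 216 (Tfcp2l1) H3K27me3 cells and in 43 (Lin28a) to 158 (Esrrb) H3K4me3 cells.

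Pdgfra and Dab2 lay above that range in the H3K27me3 cells and Lama1 did in both tables, while Gata6 with H3K4me3 exceeded it by 1 cell. Pdgfra had a read in 155 of 335 H3K27me3 cells (46.3%, 95% Wilson interval 41.0 to 51.6%) and in 7 of 210 H3K4me3 cells (3.33%, 1.62 to 6.72%). With every cell thinned to 50000 reads it was found in 24.6% of 240 and 3.09% of 162 cells that were deep enough. Lama1 had a read in 103 and 79 cells, 30.7 and 37.6%, and in 7.08 and 27.2% after thinning. Its share was thus higher with H3K4me3 both before and after thinning, the opposite order to Pdgfra. Dab2 had a read in 14.9 and 4.29% of cells, and in 4.17 and 0.617% after thinning. The tables come from different experiments, so mark and experiment cannot be told apart.

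Few cells carried most reads of Lama1. A single H3K27me3 cell held 393 of its 767 reads and a single H3K4me3 cell 580 of its 1500 reads, against medians of 1 and 2 reads per cell with a read. Other basement membrane genes ranged widely beside its 30.7 and 37.6% of cells. Lamc1 was found in 46.3 and 30.0%, the perlecan gene Hspg2 in 44.8 and 39.0%, Sparc in 25.1 and 55.7%, Col4a1 in 23.9 and 18.1%, and Lamb1 in 4.18 and 5.24%.

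The share of cells with a member followed the experiment. Pdgfra was found in 93.5, 63.8 and 50.0% of the cells of H3K27me3 experiments 8, 9 and 10, together 116 of 165 cells, and in 39 of 170 cells of the first 7, with medians of 239521 and 60379 reads per cell. In order, the first 7 gave 6 of 7, 2 of 8, 2 of 14, 0 of 15, 0 of 42, 25 of 45 and 4 of 39 cells. Experiments 4 and 5, which had none, were also the shallowest, with medians of 9336 and 15136 reads. Thinned to 50000 reads experiments 8, 9 and 10 still gave 45.8% of 59, 25.6% of 43 and 29.2% of 48 cells. Experiment 7 gave 18.8% of 16 cells and experiment 6 gave 8.89% of 45, while experiments 1, 2 and 3 gave 0. The floor for experiments 1, 2 and 3, which is 3 over their 7, 8 and 13 cells, was 42.9, 37.5 and 23.1%. The 95% Wilson interval of experiment 7, 6.59 to 43.0%, overlapped those of experiments 8, 9 and 10. Pou5f1 had no read in 62, 47 and 56 cells of experiments 8, 9 and 10, where the same floor was 4.84, 6.38 and 5.36%. It was the pluripotency gene read least often in the H3K27me3 cells, and the others were not looked up by experiment. The state of these cells therefore cannot be read from it. The median number of Pdgfra reads per cell with a read was 5, 2 and 1 in experiments 8, 9 and 10, which held 614, 75 and 75 reads over all their cells, with a maximum of 93 in a cell. Of the other members Gata4, Gata6 and Sox7 had none there while Sox17 had 2 in a single cell.

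Foxa2 and Dab2 each stood out in a single experiment. Foxa2 was read in all 16 cells of H3K27me3 experiment 1, kept or not, with 36 to 104 reads in a cell and 1029 in all, and in 0.915% of 328 kept cells of the other H3K27me3 experiments. Dab2 was read in all 16 cells of experiment 2, with 3 to 26 reads, and in 12.8% of 327 kept cells elsewhere. The cells of these experiments were the deepest, with medians of 1475910 and 1186840 reads, but the genes did not go together, since Foxa2 had 2 reads in experiment 2 and Dab2 had 11 in experiment 1. Lama1 was found in every kept cell of both.

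**Figure D4:**
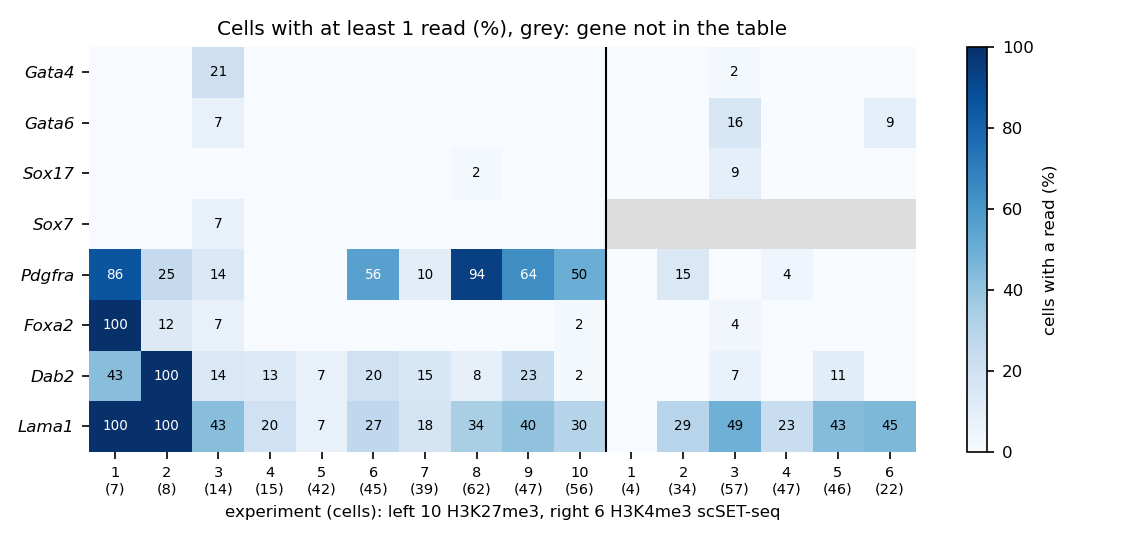
Share of kept cells with at least 1 read of each of the 8 genes (rows) in each of 16 scSET-seq experiments (columns, number of cells in brackets); blank squares are 0% and Sox7 has no row in the H3K4me3 table. Foxa2 fills experiment 1 and Dab2 experiment 2 of the H3K27me3 table, and Pdgfra is highest in experiments 1, 6 and 8 to 10.

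Gata6 and Sox17 had their reads along the rows and columns of a plate. In H3K4me3 experiment 3, with 64 wells, well G4 held 991 of 1031 Gata6 reads. This cell, with 825 genes, was not kept. A read of Gata6 was found in 13 of the 14 other wells in row G or column 4, with 1 to 6 reads each, and in 0 of the 49 wells outside them. Rows share the first 8 bases of the cell barcode and columns the last 8 bases. Sox17 did likewise, with 239 of 246 reads in well G8, 5 wells with 1 or 2 reads among the 14 that share its row or column, and none among the other 49.

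All 9 kept cells of this experiment with Gata6 and all 5 with Sox17 are among these wells. Without experiment 3, Gata6 was found in 2 and Sox17 in 0 of 153 kept H3K4me3 cells. Only 3 kept cells had reads of both genes, and all 3 were in row G. Lama1 spread less sharply from well H6 of the same plate, which held 580 of 699 reads, with reads in 12 of 14 wells of its row and column and in 16 of 49 others. For Gata4 in H3K4me3 experiment 6, where well A4 held 69 of 77 reads, reads were found in 3 of 14 wells of its row and column and in 4 of 49 others. Whether reads passed between barcodes was not tested.

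**Figure D5:**
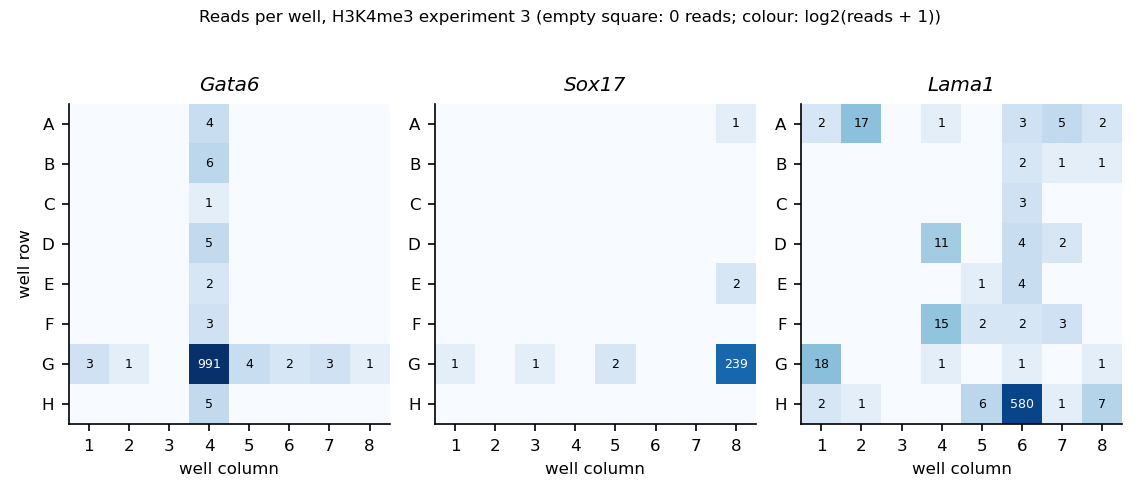
Reads of Gata6, Sox17 and Lama1 in the 64 wells of H3K4me3 experiment 3, by well row (vertical) and column (horizontal), with the number of reads printed and the colour on a log2(reads + 1) scale. The reads of Gata6 lie in row G and column 4 around the well with 991 reads and those of Sox17 in row G and column 8 around the well with 239 reads.

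Gata6 also returned in the same well of separate experiments. Well G4 held 1, 4 and 2 Gata6 reads in H3K4me3 experiments 1, 2 and 4, while the other 63 wells of each had none. Well E2 of H3K27me3 experiments 1, 2 and 3 held 6, 9 and 10 reads, and the other 15 wells of each had none. A well had the same barcode in every experiment. In H3K4me3 experiments 5 and 6 the same well G4 held 0 reads, and in experiment 6 well C1 held 18 of 21. All H3K27me3 reads of Gata6 thus came from a single barcode.

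The question of the single-cell design was whether the daughter beside the Wnt3a bead differed from the distal one. No member passed the test. Shares of cells with a read were compared within 14 experiments that had at least 3 kept cells at each position. Lama1 was read in 32.8% of proximal and 39.9% of distal cells, a mean difference of -7.06 points (SD 15.1 points over experiments), lower in proximal cells in 8 experiments and higher in 4 (exact two-sided sign-flip permutation test p = 0.103). Pdgfra differed by -4.88 points (7 experiments lower, 2 higher, exact p = 0.137) and Dab2 by -5.23 points (6 lower, 4 higher, exact p = 0.178). Adjusted over the 8 genes by Benjamini-Hochberg these were 0.474 each by the exact test, and those of the other 5 genes were 0.5 or more. Gata6 and Sox17 were lower in proximal cells in 2 experiments each and equal in 12. Experiments with equal shares do not count in this test. With at most 3 unequal experiments each, Gata4, Gata6, Sox17, Sox7 and Foxa2 could not pass it, since the smallest exact p that 3 allow is 0.25.

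Counts summed over cells of a position and experiment called no member either. Lama1, the single member with enough counts, was -1.06 in proximal against distal sums on the log2 scale (SE 0.89, adjusted p = 0.998, edgeR). The value rested on the H3K4me3 experiments, at -2.82 in these alone and at -0.09 in the H3K27me3 experiments alone, neither called. Of the 1211 distal Lama1 reads with H3K4me3 1 cell held 580, and of the 524 proximal reads with H3K27me3 1 cell held 393. Of 4885 genes 0 were called (percent called 0), with 180 at an unadjusted p under 0.05, and DESeq2 called 62. Of 6 basement membrane and 5 signalling genes tested, 0 were called in either direction.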

How the data were processed

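RNA was measured in 54 bulk libraries and 752 single cells. The authors deposited counts: per the file headers the bulk counts come from featureCounts (2.0.0 in 50 files, 2.0.1 in the 4 knockout files), unstranded and without reads mapped to several places, after trimming with Trim Galore 0.6.4 and alignment to mm9 with STAR 2.5.4b. The deposited single-cell counts are reads over exons and introns from zUMIs, without molecular identifiers. Columns of other series were 0.

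Rn45s was removed, and CPM was computed on what remained. Differences were fitted with edgeR 4.0.16 (TMM, filterByExpr, quasi-likelihood test, Benjamini-Hochberg over all genes tested, call at an adjusted p under 0.05) in R 4.3.3. The tests were checked on simulated data. The standard error is the absolute log2 difference over the root of F. Alternatives were DESeq2 1.42.0, its size factors, no filter, Rn45s kept, a replicate block, other reference libraries, 1 model of all 54 libraries and libraries left out. Shares of cells were compared by an exact sign-flip permutation test over experiments (SciPy 1.17.1), and 95% Wilson intervals and exact intervals of count ratios cover counting error alone. Cells were thinned by drawing 50000 reads. Doublets were not called, since each cell had been placed by hand in a well of its own. Genomic libraries of the series were not analysed here.

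The members and all lists were chosen with earlier results of these data known. All 8 members are named, with Aebp2 as the check of the knockout, the called genes of each list with the largest absolute log2 difference (at most 3 per list, for both knockout comparisons), and the gene most like each member. Hprt, Rn45s, and the single-cell values of the stem cell, basement membrane and unrelated tissue genes were added after their values were seen.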

Additional observations from a re-analysis of the deposited data

Results flagged for a closer look

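In 11 of 23 groups of samples the highest value lay apart from the others, where chance gives about 1 in 20 for values without ties. In 8 of the 11 all other samples were at 0, so that any single value above 0 lies apart and this rate does not apply. Nearly all are shares of kept cells with a read by experiment. Among 10 H3K27me3 experiments the highest share was 21.4% for Gata4, 7.14% for Gata6 and 7.14% for Sox7, all in experiment 3, with 0 in the others. For Sox17 it was 1.61% in experiment 8. Foxa2 reached 100% in experiment 1, where the next was 12.5%, and Dab2 reached 100% in experiment 2, where the next was 42.9%. Among 6 H3K4me3 experiments the highest were 1.75% for Gata4, 8.77% for Sox17 and 3.51% for Foxa2, all in experiment 3 with 0 elsewhere, and 14.7% for Pdgfra in experiment 2, with 4.26% next. Among the 4 knockout libraries Gata4 was at 3.21 CPM in KO1 replicate 2 and at 0 in the others.

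The 49 H3K27me3 cells outside the limits on genes per cell are not used in the comparisons. In these Gata4 had a read in 12.2%, against 0.896% of kept cells, and Foxa2 in 20.4%, against 2.99% of kept cells. Of the 10 such cells with Foxa2, 9 were from experiment 1.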

How the results depend on the processing

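The knockout comparison kept Lama1 as its single called member in all 17 alternatives. At 37 against 16 °C 0 members were called with an unadjusted p and a log2 difference over 1, and 0 in 1 model of all 54 libraries. With all 16 temperature and time libraries, SET-seq called 2 members and ligation-based RNA-seq 4. For the latter 0 were called without the filter, 0 with the replicate block and 0 in 1 model, and 0 to 1 with a library left out. The cause was not tested.

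Direction turned for members with no call. Lama1 in KO1 against KO2 ranged from -0.49 to 0.87 with a library left out. Gata4 ranged likewise from -0.61 to 0.72 in H3K27me3 against H3K4me3, from -1.16 to 1.88 in SET-seq against in vitro, from -1.15 to 1.90 in ligation-based RNA-seq and from -0.17 to 0.52 with against without antibody, and Dab2 from -0.22 to 7.36 in ligation-based RNA-seq. With all 16 libraries Gata4 was at 0.72 in SET-seq and 0.60 in ligation-based RNA-seq, and Pdgfra at 0.22 in the latter. For proximal against distal shares Gata4 was at -0.265 points with at least 2 reads, -0.741 in H3K4me3 alone, -2.80 in all cells and -0.285 to 1.10 with an experiment left out, and Dab2 at 3.8 with at least 2 reads and 0.390 in H3K4me3 alone.

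The samples shared only replicate numbers, so the block is given here alone. Correlations of deviations ran from -0.0713 to 0.0197 among knockout clones and WT, with 4 of 28 pairs over 0.1 by temperature (up to 0.287), 3 of 36 by antibody (up to 0.122), 0 of 15 by mark, and the single pair at 0.175 in SET-seq and -0.0336 in ligation-based RNA-seq. With the replicate block Lama1 was at -1.89 in the knockouts (3741 genes called), 0.34 between clones (824), -0.15 by temperature (7479), 0.43 by mark (0), -1.59 in SET-seq (6003), -1.06 by antibody (4688) and -0.29 in ligation-based RNA-seq (adjusted p = 0.132, edgeR, 6524).

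Counts over all genes moved by more than 1.5 times in some settings. Knockout against WT called 4231 genes, 2789 with an unadjusted p and a log2 difference over 1, and 2056 to 4685 with a library left out. KO1 against KO2 called 1121, and 664, 524 (DESeq2), 29 (1 model) and 311 to 1791 in the same way. Temperature called 7473, against 1046 and 3488 (1 model), SET-seq 5397 against 3484 (1 model), ligation-based RNA-seq 7140 against 4720 and 3225 (1 model), antibody 4828 against 1385, mark 0 against 39 and position 0 against 179, 24 (no filter) and 62 (DESeq2). Depth limits all members but Lama1.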

Other observations

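Other genes had reads in the same well of separate experiments as well. Gata4 had 4, 3 and 2 reads in well D2 of H3K27me3 experiments 1, 2 and 3. Of the other 15 wells 1, 2 and 2 had any, with up to 1, 3 and 4 reads. Lama1 was highest in well H6 in H3K4me3 experiments 2, 3 and 4, with 224, 580 and 62 reads, and had 2 and 3 reads there in experiments 5 and 6. Dab2 had 5, 24 and 624 reads in well A1 of H3K27me3 experiments 1, 2 and 3, and the other 15 wells of experiment 3 held 2 of its 626 reads. In experiments 1 and 2, 4 and 15 of the other 15 wells had Dab2 reads, with up to 3 and 26. The reason was not tested.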
